A study of Mus musculus with 8 samples.

Results

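The keratin gene clusters were read in lists of H3K27ac peaks from breast tumors of the mouse. The genes were chosen by symbol. They were the protein-coding genes on autosomes in GENCODE M21 whose symbol was Krt followed by digits alone, and 49 of 21938 protein-coding genes met the rule. The 25 genes on chromosome 11 are type I (acidic) keratins, and of the 24 genes on chromosome 15, all but Krt18 are type II (basic) keratins. Krt6a, Krt6b, Krt33a and Krt33b, whose symbols end in a letter, were left out by the rule and were read as a separate list.

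H3K27ac, the acetylation of lysine 27 of histone H3, marks active promoters and enhancers. Its peaks were measured by chromatin immunoprecipitation sequencing (ChIP-seq) in 4 tumors. The control group was 2 tumors of PyMT;Rag1KO mice and the test group was 2 tumors of K14-TSLPtg;PyMT;Rag1KO mice, all on Balb/c. PyMT is the polyoma middle T oncogene, driven in the mammary epithelium by the mouse mammary tumor virus promoter, and mice without Rag1 make no T or B cells of their own. Mice of both groups were given wild type CD4+ T cells at the age of 4 weeks, and tumors were taken at terminal size. The test mice also carried thymic stromal lymphopoietin (TSLP), a cytokine, under the promoter of keratin 14, itself 1 of the genes read here. In the sample titles the word tumor stands for the control group and cyst for the test group. Per the study, no mouse gave more than a single tumor.

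Keratins are the intermediate filament proteins of epithelial cells, and each filament pairs a type I with a type II keratin. In the mammary gland the luminal cells make Krt8 and Krt18 with Krt7 and Krt19, and the basal or myoepithelial cells make Krt5 and Krt14. The suprabasal keratins Krt1 and Krt10 belong to the epidermis, Krt4 to mucosal stratified epithelia, and the hair and inner root sheath keratins to the hair follicle.

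The lists held 69861 and 67850 peak intervals in control 1 and 2, and 65763 and 59762 in test 1 and 2. These intervals covered 73.1 and 67.8 Mb of the genome in control 1 and 2, and 73.0 and 64.3 Mb in test 1 and 2. Where 4 values follow without a label, they keep this order. The lists give the position of each peak without its height, and the read depth behind them is unknown. The measure used was therefore coverage, the percent of bases within 10 kb on either side of a gene's start that lay in peaks. A promoter peak was any peak within 1 kb of the start. With 2 tumors in each group the smallest p that a two-sided exact permutation test can give is 0.333, so no p is given, and differences were read against the spread between tumors and against all protein-coding genes. The SD of a difference was taken over the 4 test-control pairs of tumors. These were whole tumors, and fewer cells of a type cannot be told apart from less acetylation per cell.

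Most keratin genes carried no peak at the start. A promoter peak in all 4 tumors was found at 7 of 49 genes (14.3%), against 49.6% of all protein-coding genes. These were Krt7, Krt8, Krt18, Krt19, Krt23, Krt79 and Krt80. No tumor had a promoter peak at 37 genes (75.5%), against 42.8% of all genes. At the remaining 5 genes, Krt4, Krt5, Krt14, Krt15 and Krt17, the promoter peak was present in some tumors. Within the wider window of 10 kb, 26 genes had a peak in any tumor and 23 had none (46.9%, against 32.6% of all genes).

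The number of keratin promoters with a peak did not separate the groups. It was 11 and 8 in control 1 and 2, and 11 and 7 in test 1 and 2, or 9.5 ± 2.12 in control and 9 ± 2.83 in test tumors (SD, n = 2). Promoter peaks shared by the control tumors and missing from both test tumors were found at 0 keratin genes (background 0.533% of all genes), and the reverse at 0 keratin genes (background 0.301%). When every annotated start of a gene was allowed, the counts were 12, 10, 13 and 9.

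**Figure D1:**
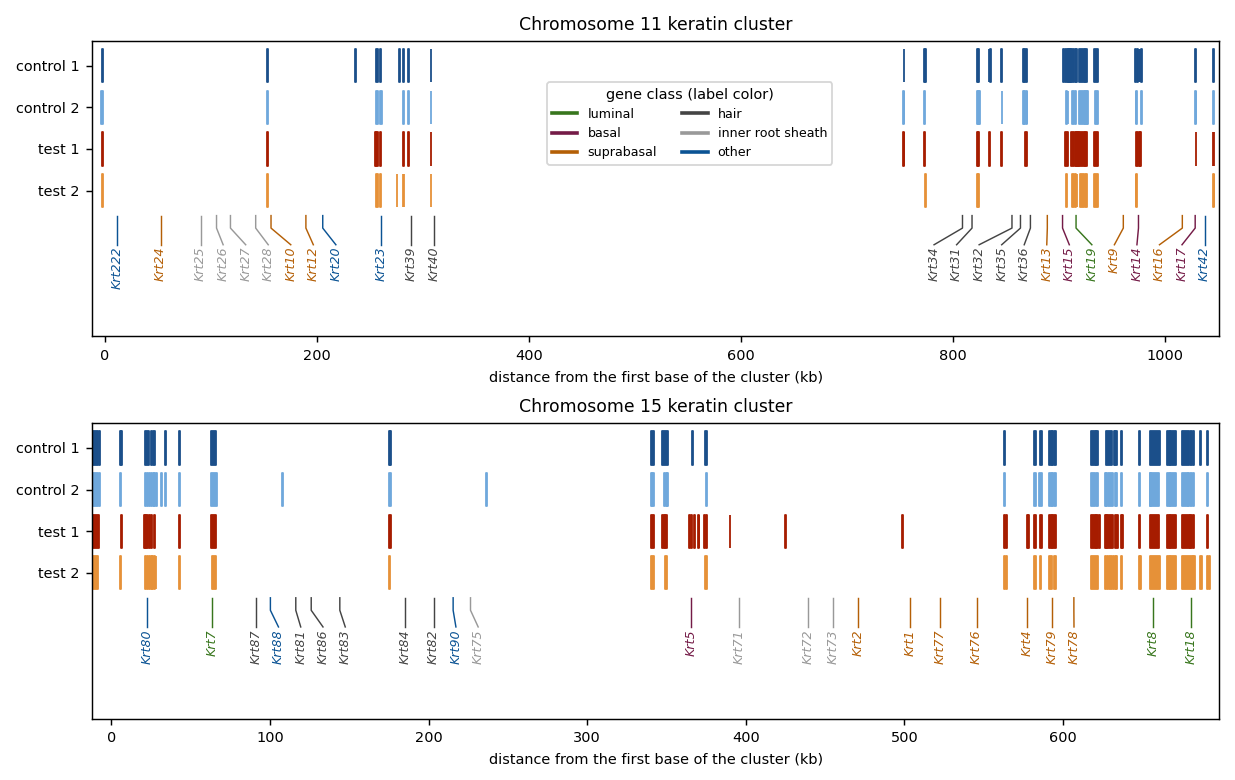
H3K27ac peaks (filled bars, 1 row per tumor) along the chromosome 11 and chromosome 15 keratin clusters, by distance from the first base of the cluster in kb. Gene starts stand below in the color of their class, and the narrowest peaks are drawn wider than to scale so that they can be seen. Peaks gather around Krt15 and Krt19 on chromosome 11 and from Krt79 to Krt18 on chromosome 15, and a stretch of 445 kb on chromosome 11 is empty in all 4 tumors.

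The luminal keratins Krt8, Krt18, Krt19 and Krt7 were acetylated in every tumor. Krt8 (chr15:101996698-102004482, minus strand) and its partner Krt18 (chr15:102028180-102032027, plus strand) lie side by side. The coverage of Krt8 was 41.5% and 39.6% in control 1 and 2, and 40.2% and 42.7% in test 1 and 2, and all 2001 bases of its promoter window lay in peaks in each tumor. The coverage of Krt18 was 40.6%, 36.2%, 39.2% and 50.9%. The groups overlapped at both genes, with differences (test minus control) of 0.897 (SD 1.76) and 6.64 (SD 7.21) percentage points. Of the promoter window of Krt18, 1656, 1444, 1644 and 1894 bases lay in peaks. Upstream bases of both promoters are shown because the 250 bases before the RefSeq start lay wholly within peaks in all 4 tumors. The bases come from RefSeq (GRCm38.p6), run 5′ to 3′ on the strand of the gene, and leave out bases that GENCODE places in an exon of the gene. Krt8 is chr15:102004483-102004592 on the minus strand and Krt18 is chr15:102027966-102028179 on the plus strand. Capitals mark a match to the ETS letters AGGAAGT on the opposite strand in Krt8, and to the AP-2 letters GCCNNNGGC in Krt18.
Krt8: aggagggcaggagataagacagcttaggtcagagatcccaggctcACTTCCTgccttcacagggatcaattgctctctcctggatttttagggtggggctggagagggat
Krt18: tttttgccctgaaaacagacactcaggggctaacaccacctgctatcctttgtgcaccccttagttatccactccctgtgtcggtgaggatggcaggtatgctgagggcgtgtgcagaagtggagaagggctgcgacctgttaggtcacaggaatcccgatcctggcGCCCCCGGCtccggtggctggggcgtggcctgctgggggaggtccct

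The acetylated region over the start of Krt8, chr15:102002022-102008397 when the peaks of the tumors were joined, was among the widest in the clusters. Peaks covered 6286 and 5695 bp in control 1 and 2, and 6087 and 6376 bp in test 1 and 2. Over the start of Krt18, at chr15:102022175-102029073, peaks covered 6546, 6096, 6567 and 6891 bp. Both regions were covered most in test 2, the tumor with the fewest peaks in the genome. The groups overlapped over the Krt8 start. Over the Krt18 start both test tumors were above both control tumors, with control 1 and test 1 nearly equal (6546 and 6567 bp). Over the Krt8 and Krt18 genes and the bases between them (chr15:101996698-102032027), a stretch of 35.3 kb whose bounds were set after the peaks had been seen, coverage was 54.2%, 50.8%, 52.7% and 57.7%. That stretch held between 33.3% and 42.6% of all acetylated bases of the chromosome 15 cluster.

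Krt19, a type I keratin with no type II partner of its own, had the highest coverage of the 49 genes. Its window was covered to 79.0% and 53.9% in control 1 and 2, and 68.6% and 47.5% in test 1 and 2. The mean over the tumors stood at percentile 99.4 of all genes with any coverage, against 96.1 for Krt18, 95.9 for Krt8 and 70.7 for Krt7. Control 1 and test 1 were the higher of their groups, and the difference of -8.39 percentage points was smaller than its SD of 18.9. Upstream of the start, chr11:100151559-100156820 was acetylated over 5100, 4943, 5157 and 4465 bp in the 4 tumors. This region lies 2894 bp before the start of Krt19 and overlaps no annotated gene.

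Krt7, which pairs with Krt19 or Krt18 in ductal epithelia, was covered to 16.1% and 17.3% in control 1 and 2, and 17.1% and 12.6% in test 1 and 2. Test 2 alone was low, and the groups overlapped. Over the 4 luminal keratins the mean coverage was 40.5 ± 5.30% in control and 39.9 ± 2.04% in test tumors (SD, n = 2), a difference of -0.677 (SD 4.64) percentage points. Of 12 other luminal markers 11 were covered, and the mean over all 12 was 31.7 ± 0.734% in control and 32.3 ± 0.0610% in test tumors (SD, n = 2). By tumor it was 32.2% and 31.2% in control 1 and 2, and 32.4% and 32.3% in test 1 and 2. Both test tumors were thus above both control tumors, with control 1 and test 2 nearly equal. The luminal transcription factor Foxa1 had no peak in its window, while Cldn3, Cdh1 and Epcam were covered in each tumor.

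**Figure D2:**
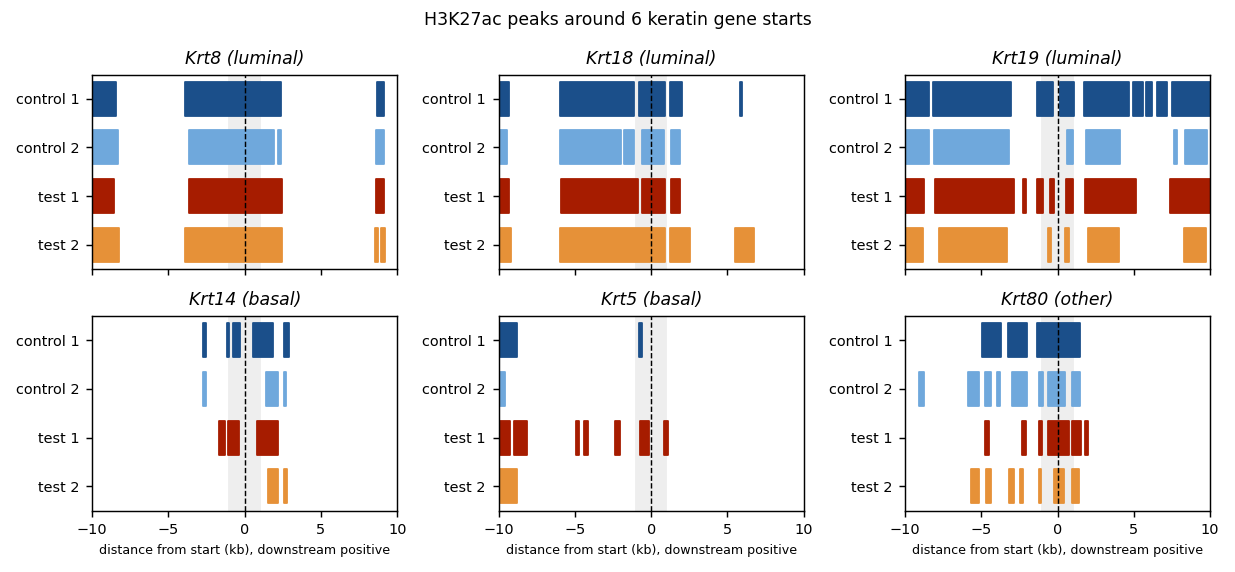
H3K27ac peaks (bars, 1 row per tumor) by distance in kb from the starts of Krt8, Krt18, Krt19, Krt14, Krt5 and Krt80, with downstream to the right and the promoter window shaded. Krt8 and Krt18 show a wide peak over the start in all 4 tumors, Krt14 and Krt5 show peaks just upstream of the start in control 1 and test 1, and the Krt80 peaks upstream of the start are wider in the control tumors.

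The basal keratins varied between tumors of the same group more than between the groups. Of the 4 basal keratins, 4 and 1 had a promoter peak in control 1 and 2, and 3 and 0 in test 1 and 2. Mean coverage of Krt5, Krt14, Krt15 and Krt17 was 13.1% and 6.16% in control 1 and 2, and 13.7% and 5.91% in test 1 and 2. Control 1 and test 1 were high and control 2 and test 2 were low. Peaks of control 1 and test 1 also covered more of the whole genome (73.1 and 73.0 Mb) than those of control 2 and test 2 (67.8 and 64.3 Mb). The group means were 9.63 ± 4.92% and 9.81 ± 5.52% (SD, n = 2), a difference of 0.177 (SD 6.03) percentage points.

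Krt5 (chr15:101707070-101712898, minus strand) and Krt14 (chr11:100203162-100207548, minus strand) form the filament pair of basal cells. Krt5 was covered to 6.88% and 1.97% in control 1 and 2, and 15.9% and 5.84% in test 1 and 2. Krt14 was covered to 12.7%, 5.65%, 12.2% and 4.41%. At both genes a promoter peak was present in control 1 and test 1 and absent from control 2 and test 2. The Krt5 peak at chr15:101713057-101713728, 159 bp upstream of the start, covered 205 bp in control 1 and 607 bp in test 1. The Krt14 peak at chr11:100207826-100208737, 278 bp upstream of the GENCODE start, covered 674 and 690 bp in the same tumors. The 250 bases before their RefSeq starts are shown since peaks there differed between tumors. In the Krt14 window peaks covered 250, 99, 250 and 22 bases, and in the Krt5 window 0, 0, 99 and 0 bases. Krt14 is chr11:100206031-100206280 and Krt5 is chr15:101712906-101713155, both on the minus strand and RefSeq GRCm38.p6, with no capitals because none of the 6 motifs searched was found.
Krt14: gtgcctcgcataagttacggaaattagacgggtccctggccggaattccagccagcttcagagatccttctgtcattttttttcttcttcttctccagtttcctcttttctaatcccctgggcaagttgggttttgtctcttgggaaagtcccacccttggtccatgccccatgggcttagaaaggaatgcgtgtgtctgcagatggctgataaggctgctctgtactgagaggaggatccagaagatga
Krt5: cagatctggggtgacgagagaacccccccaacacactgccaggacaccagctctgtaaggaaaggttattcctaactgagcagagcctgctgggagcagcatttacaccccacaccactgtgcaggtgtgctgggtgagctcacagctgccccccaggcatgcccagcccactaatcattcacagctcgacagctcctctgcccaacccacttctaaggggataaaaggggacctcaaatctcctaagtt

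The RefSeq start of Krt14 lies 1518 bp from the GENCODE gene start, inside the gene. A peak over that start, chr11:100205339-100207023, was present in all 4 tumors and covered 1320 and 787 bp in control 1 and 2, and 1418 and 669 bp in test 1 and 2. By the RefSeq start Krt14 was thus acetylated in every tumor, with the wider peaks in control 1 and test 1. By the GENCODE gene start it had a promoter peak in control 1 and test 1 alone. The sources used here do not give the species or extent of the keratin 14 promoter in the TSLP transgene, so any reads from it in the test tumors cannot be told apart from reads of Krt14 itself.

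Krt15, a keratin of basal cells and of hair follicle stem cells, was covered to 31.8% and 15.0% in control 1 and 2, and 25.6% and 13.4% in test 1 and 2. Its own promoter peak was 175 bp wide and found in control 1. The other peaks in its window belonged to regions that overlap the Krt19 gene, such as chr11:100138598-100141322. Without Krt15, a choice made after seeing the data, the mean coverage of the basal keratins was 6.87%, 3.22%, 9.75% and 3.42%, with a difference of 1.54 (SD 4.22) percentage points. Krt17, a keratin of skin appendages and wounded epithelium, had coverage of 1.01%, 2.03%, 1.18% and 0%. Its promoter was covered over 203, 407, 236 and 0 bp, and test 2 was the tumor without a peak.

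Krt6a and Krt6b, wound-induced type II keratins beside Krt5 that the symbol rule left out, were set next to these genes. Krt6a was covered to 26.6% and 10.5% in control 1 and 2, and 26.6% and 17.2% in test 1 and 2, high in the same tumors as Krt5 and Krt14. Krt6b was covered to 9.60%, 6.63%, 10.9% and 11.1%, higher in both test tumors. All of these bases lay at chr15:101687518-101689751, between the Krt6b and Krt6a genes, and they were counted in the Krt6a window too. No peak lay over the Krt6b gene itself. Of 10 myoepithelial markers that are not keratins, all were covered in at least 1 tumor. Their mean coverage was 7.47% and 5.79% in control 1 and 2, and 7.23% and 6.44% in test 1 and 2, and their promoter peaks numbered 7, 6, 5 and 2. Whether the number of myoepithelial cells had a part in the values of the basal keratins was not tested.

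**Figure D3:**
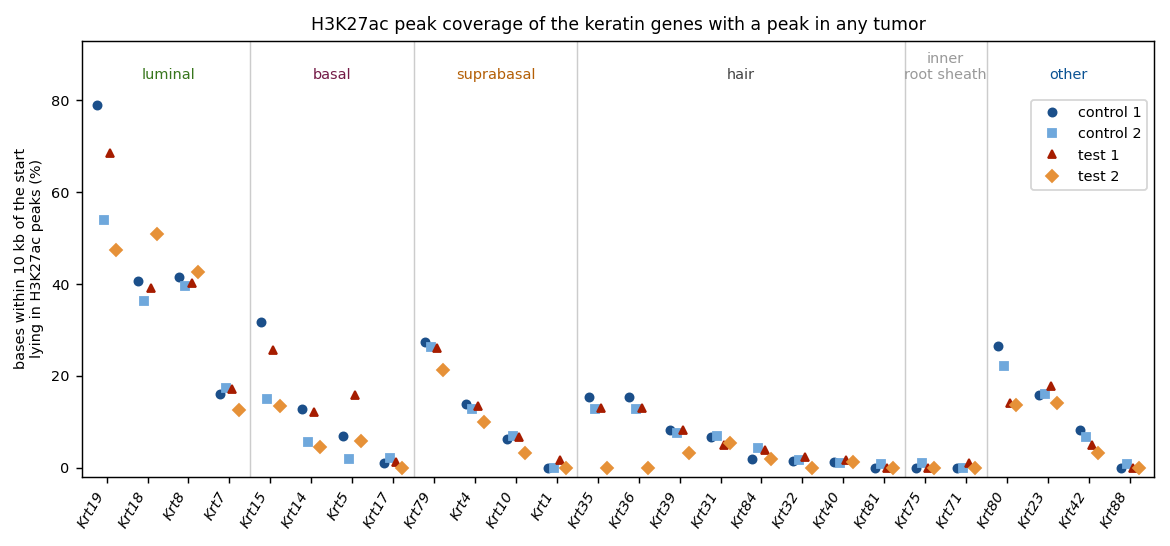
Coverage (percent of bases within 10 kb of the start lying in H3K27ac peaks) of the 26 keratin genes with a peak in any tumor, 1 symbol per tumor, by class. The luminal genes Krt19, Krt8 and Krt18 stand above the others in all 4 tumors, and the basal genes Krt15, Krt14 and Krt5 are higher in control 1 and test 1 than in the other tumor of each group.

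Among the 26 covered genes, coverage was higher in both control tumors than in both test tumors at 4 genes (15.4%, background 11.6%) and higher in both test tumors at 0 genes (0%, background 20.9%). The 4 genes were Krt80, Krt42, Krt79 and Krt31. None of the 4 was higher in both control tumors when the window was 2.5 kb or when peaks under 1 kb were left out, and Krt80 and Krt31 alone were with the 25 kb window. The median difference was -0.900 percentage points over the 26 genes and 0.277 over the 14792 protein-coding genes with any coverage. The test mean was the lower at 20 keratin genes and the higher at 6, against 6311 and 8470 of the 14792 genes. Without test 2 the median over keratin genes was 0.262, and without test 1 it was -2.61. With control 1, control 2, test 1 or test 2 left out, 11, 10, 17 or 4 genes were higher in the control group and 4, 0, 2 or 7 in the test group. A group of 1 tumor meets the rule more easily at any gene. The shares over all genes with a tumor left out are not given, so these counts have no background. Over the 49 genes, 11 had another member's start within their window, so that some peaks were counted more than once.

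Krt80 (chr15:101347444-101370162, minus strand), a type II keratin of differentiating epithelia that is found near desmosomes, differed most of these. Its coverage was 26.5% and 22.2% in control 1 and 2, and 14.1% and 13.6% in test 1 and 2. Both control tumors were above both test tumors, and the difference was -10.5 percentage points (SD 2.49), from -12.9 to -8.14 over the pairings. The start itself was acetylated in all 4 tumors. The difference was clearest upstream, where peaks at chr15:101372168-101373403 covered 1236 and 943 bp in control 1 and 2, and 272 and 531 bp in test 1 and 2. At the next region, chr15:101373873-101375152, peaks covered 1280, 618, 290 and 342 bp. Further upstream, chr15:101375333-101376012 held 0, 659, 0 and 531 bp, with a peak in control 2 and test 2, and chr15:101378927-101379282 held 356 bp in control 2 alone. These 4 regions lie within the annotated gene Gm35853. Within 2.5 kb of the start the difference was -16.0 percentage points with an SD of 16.2, and there the groups overlapped. With peaks of at least 1 kb its coverage was 26.5%, 5.53%, 6.91% and 0%, and the groups overlapped as well.

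At the other 3 genes the difference was smaller. Krt79, a keratin of the sebaceous duct and follicle opening, was covered to 27.3% and 26.2% in control 1 and 2, and 26.1% and 21.4% in test 1 and 2, so that control 2 and test 1 were nearly equal. Krt42, a type I keratin, was covered to 8.21%, 6.59%, 4.96% and 3.13%. None of the peaks in its window lay over Krt42. Most of the bases were at chr11:100277642-100279081, over an exon of Gm14206 that lies 7771 bp upstream, where peaks covered 1440, 912, 756 and 627 bp. The rest were the 203, 407, 236 and 0 bp at the promoter of Krt17. Krt31, a hair keratin, was covered to 6.72%, 7.0%, 4.86% and 5.44%, by peaks in the gene Gm11571 and none at the Krt31 promoter.

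**Figure D4:**
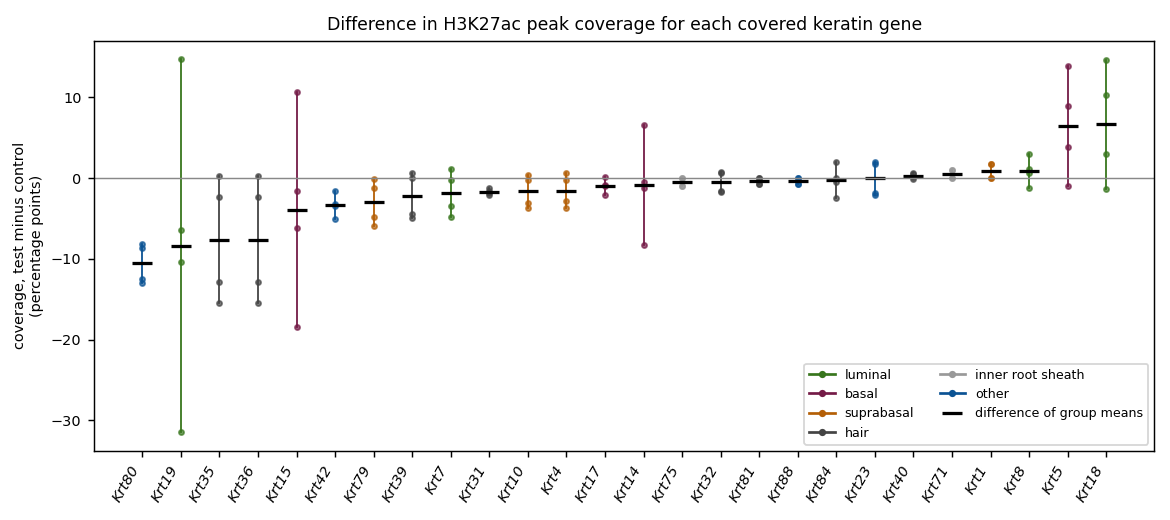
Difference in coverage (test minus control, percentage points) of the 26 covered keratin genes, where each point is 1 test-control pair of tumors, the line spans the 4 pairings and the black bar is the difference of the group means. The pairings of Krt80, Krt42, Krt79 and Krt31 lie below 0 throughout, and those of Krt19 and Krt15 spread on both sides of 0.

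The stratified keratins were mostly without acetylation. Of 13 genes of this class 4 were covered, namely Krt1, Krt4, Krt10 and Krt79, and Krt79 alone had a promoter peak in all 4 tumors. With every annotated start allowed, Krt10 had one in all 4 tumors as well. Krt10, the type I keratin of suprabasal epidermis, was covered to 6.31% and 6.89% in control 1 and 2, and 6.64% and 3.24% in test 1 and 2, by a peak inside the gene at chr11:99385414-99386820. Krt1, its type II partner, was covered to 1.75% in test 1 and 0% in the other tumors. Krt4, a keratin of mucosal epithelium, was covered to 13.8%, 12.9%, 13.5% and 10.0%, and a promoter peak of 512 bp in total was found in test 1. All other bases lay in regions that overlap exons of Krt79, chr15:101929190-101930629 and chr15:101932550-101934066. The epidermal markers Dsc1, Dsg1a, Flg, Ivl and Tgm3 had no peak in their windows in any tumor, and 7 of 12 skin and hair markers were covered, with a mean over all 12 of 8.83%, 7.78%, 9.52% and 8.48%. The class members without a peak were Krt2, Krt9, Krt12, Krt13, Krt16, Krt24, Krt76, Krt77 and Krt78.

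Among the keratins of no fixed class, Krt23, a type I keratin, had a promoter peak in all 4 tumors. It was covered to 15.9% and 16.1% in control 1 and 2, and 17.9% and 14.05% in test 1 and 2, and the group means differed by -0.0100 (SD 2.23) percentage points. No peak was found in the window of Krt20, Krt90 or Krt222. Krt88 shared the single peak in its window with Krt81.

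No hair keratin had a promoter peak in any tumor (0 of 13 genes). In the wider window 8 of the 13 were covered, with a mean over the class of 3.89% and 3.71% in control 1 and 2, and 3.63% and 0.902% in test 1 and 2. Test 2 stood below the other tumors, and the difference of -1.53 (SD 1.58) percentage points between the groups was -0.168 without it. The bases before Krt31, a keratin of the hair cortex, are shown as an example of a promoter that no peak touched in any tumor. They are chr11:100050552-100050801 on the minus strand (RefSeq, GRCm38.p6), and the capitals mark the TATA box letters TATAAA.
Krt31: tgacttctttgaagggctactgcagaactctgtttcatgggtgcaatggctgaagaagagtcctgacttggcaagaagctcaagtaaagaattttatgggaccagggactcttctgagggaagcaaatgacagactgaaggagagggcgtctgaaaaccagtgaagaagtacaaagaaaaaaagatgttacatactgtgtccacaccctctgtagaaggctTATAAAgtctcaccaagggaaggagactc

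Krt35 and Krt36, keratins of the hair matrix and cortex, had the highest coverage of the class. Both were covered to 15.4% and 12.9% in control 1 and 2, and 13.1% and 0% in test 1 and 2, by the same peaks. The main peak, chr11:100099777-100102781, lies between the genes and over the 3′ end of Krt36. It covered 2894, 2414 and 2619 bp in the first 3 tumors and was absent from test 2. Of the cuticle keratins, Krt39 was covered to 8.15%, 7.63%, 8.22% and 3.21%, Krt40 to 1.31%, 1.11%, 1.78% and 1.24%, and Krt32 to 1.57%, 1.74%, 2.35% and 0%. Test 2 was the lowest at Krt39 and Krt32, and at Krt40 all tumors were low. Krt33a, a hair keratin outside the symbol rule, was covered to 1.72%, 1.99%, 2.07% and 1.46%, and Krt33b held no peak in its window.

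On chromosome 15 the type II hair keratins were nearly bare. Krt84 was covered to 1.85% and 4.29% in control 1 and 2, and 3.80% and 1.83% in test 1 and 2, by a peak 9142 bp past its start. Krt81 was covered to 0.795% in control 2 and 0% in the others. Krt34 on chromosome 11 and Krt82, Krt83, Krt86 and Krt87 had no peak in their windows. The stretch from Krt87 to Krt82, 120 kb long, had coverage between 0.40% and 0.944% in the 4 tumors. Of 8 keratins of the inner root sheath and companion layer, 2 were covered. Krt75, a companion layer keratin, reached 0.995% in control 2 and Krt71, of the inner root sheath, 0.965% in test 1. Krt72 and Krt73 had no peak in their windows, and the stretch from Krt25 to Krt28 (59.4 kb), with Krt26 and Krt27, held none in any tumor.

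The keratin-associated proteins cross-link hair keratins, and 23 of their genes lie inside the chromosome 11 cluster. Of 57 such genes in the genome, 6 had a peak in the window of any tumor and 51 had none. Of 20 transcription factors known to act on keratin genes 16 were covered. Among these Tfap2c, an AP-2 factor, was covered to 59.2% and 57.5% in control 1 and 2, and 61.2% and 56.3% in test 1 and 2, and the hair factors Hoxc13, Dlx3 and Msx2 had no peak in their windows. Trp63, the p63 factor of basal cells, had none within 10 kb of its outermost start. Around its annotated start at chr16:25801916, 118153 bp inside the gene and read after the other values had been seen, coverage was 32.3% and 25.6% in control 1 and 2, and 32.5% and 10.2% in test 1 and 2. Test 2 was lowest there, and it was the tumor without a peak within 1 kb of that start. Grhl3 and Ovol1 were higher in both control tumors (2 of 16, background 11.6%), and Zfp750, Ehf and Cebpb in both test tumors (3 of 16, background 20.9%), shares near those of all genes.

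The chromosome 11 cluster (chr11:99232761-100269871, 1037 kb) had coverage of 3.64% and 2.77% in control 1 and 2, and 3.25% and 2.01% in test 1 and 2. The chromosome 15 cluster (chr15:101347444-102032027, 685 kb) had coverage of 7.92%, 6.99%, 8.17% and 6.98%. The groups overlapped in both, with differences of -0.571 (SD 0.874) and 0.123 (SD 0.873) percentage points. The peaks were unevenly placed. In the 65.2 kb between the Krt13 and Krt9 genes (chr11:100121567-100186780), which hold Krt15 and Krt19 and were bounded after the peaks had been seen, lay between 51.9% and 67.0% of the acetylated bases of the chromosome 11 cluster. In the 77.7 kb from the base after the Krt78 gene to the last base of Krt18 (chr15:101954288-102032027), bounded in the same way, lay between 55.3% and 63.6% of those of the chromosome 15 cluster. Coverage of that stretch was 39.0%, 36.4%, 39.8% and 39.1%, higher in both test tumors by a mean of 1.76 (SD 1.56) percentage points, with control 1 and test 2 nearly equal. The longest stretch free of peaks in all 4 tumors was 445 kb on chromosome 11, with the starts of Krt40 and of 21 keratin-associated protein genes, and 104 kb on chromosome 15, between Krt75 and Krt5. The Krt6b gene lies inside the latter stretch.

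When peaks of the 4 tumors were joined, the clusters held 84 regions. Of these 39 were present in all 4 tumors (46.4%, background 38.1%), 4 in both control tumors alone (4.76%, background 3.41%) and 1 in both test tumors alone (1.19%, background 1.47%). A further 25 regions were found in a single tumor, 14 of them in test 1, 6 in control 1, 4 in control 2 and 1 in test 2. Regions of a single tumor were narrow, with a median width of 227 bp against 1860 bp for those of all 4 tumors. Control 1 and test 1 alone shared 4 regions, among them those before Krt5 and Krt14, and control 2 and test 2 alone shared 1. Control 2 and test 1 alone shared 2, and control 1 and test 2 alone shared 0. With control 1, control 2, test 1 or test 2 left out, the control-only regions numbered 9, 10, 9 or 5 and the test-only regions 2, 2, 2 or 16. A group of 1 tumor meets this rule more easily too, and no background is given for these counts.

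The 4 control-only regions were narrow. They lay 2490 bp upstream of Krt35 (chr11:100098731-100098973), 2540 bp upstream of Krt14 (chr11:100210088-100210279), 41 bp past the start of Krt17 in an exon (chr11:100260743-100260988) and 11076 bp upstream of Krt80 in Gm35853 (chr15:101381238-101381577). The central 200 bases of 2 of these regions are shown on the plus strand (RefSeq, GRCm38.p6) because they were present in the control tumors alone. They are chr11:100210084-100210283 near Krt14 and chr15:101381308-101381507 near Krt80, with no capitals because neither holds any of the 6 motifs searched. The content of G and C was 47.5% near Krt14 and 53% near Krt80.
Control-only near Krt14: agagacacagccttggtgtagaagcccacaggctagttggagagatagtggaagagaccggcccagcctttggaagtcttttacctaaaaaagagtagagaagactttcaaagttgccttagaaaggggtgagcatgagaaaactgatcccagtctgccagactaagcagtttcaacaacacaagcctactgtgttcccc
Control-only near Krt80: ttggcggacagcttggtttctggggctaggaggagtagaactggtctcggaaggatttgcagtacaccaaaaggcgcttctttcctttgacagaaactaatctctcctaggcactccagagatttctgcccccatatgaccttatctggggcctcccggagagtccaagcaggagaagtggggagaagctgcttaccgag

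The bases before the start were searched for 6 short motifs in the 35 genes with a RefSeq promoter, over 250 bases and on both strands. By the RefSeq start, 6 of these (Krt7, Krt8, Krt14, Krt18, Krt23 and Krt79) had a peak within 1 kb in all 4 tumors and 28 had none. For Krt14 this start and the bases before it lie inside the GENCODE gene. By the GENCODE gene start its promoter peak was in control 1 and test 1 alone. The TATA box letters TATAAA were found before 0 of the 6 and 16 of the 28, and in 12.4% of all 32851 promoters. The letters CCAAT were found before 0 of the 6 and 13 of the 28 (33.8% of all promoters). The GC box letters GGGCGG were found before Krt7 and 1 of the 28 (32.7%). The AP-2 letters GCCNNNGGC, which can overlap the GC box, were found before Krt7, Krt18 and 3 of the 28 (13.7%). The ETS letters AGGAAGT were found before Krt8 and 1 of the 28 (7.69%), and the AP-1 letters TGANTCA before 0 of the 6 and 1 of the 28 (6.75%). In Krt7 the matches lie in bases that GENCODE places in an exon. The median G and C content was 59.2% in the 6, 46% in the 28 and 52.4% in all promoters, and the median number of CpG sites was 5, 3.5 and 6.

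Markers of other cell types were read beside these genes. Of 10 fibroblast markers 7 were covered, with a mean over all 10 of 5.25% and 3.24% in control 1 and 2, and 3.14% and 0.909% in test 1 and 2, while Lum, Fap and Thy1 had no peak. Of 10 endothelial markers 7 were covered, with a mean over all 10 of 3.86%, 4.96%, 1.52% and 0.653%, while Tie1, Vwf and Erg had no peak. Of 10 myeloid markers 8 were covered, with a mean over all 10 of 16.6%, 14.7%, 15.2% and 10.97%, while Adgre1 and Cx3cr1 had no peak. Both control tumors stood above both test tumors in the fibroblast and endothelial lists, as they did at Krt80, Krt42, Krt79 and Krt31. In the fibroblast list control 2 and test 1 were nearly equal (3.24% and 3.14%), and in the myeloid list the groups overlapped. Test 2, whose peaks covered the fewest bases of the genome (64.3 Mb), was lowest in each of the 3 lists. It was also the lowest tumor at Krt7, Krt19, Krt14, Krt15, Krt17, Krt79, Krt80 and Krt35 and the highest at Krt8 and Krt18. The part of cell make-up in the keratin values was not tested.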

How the data were processed

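H3K27ac peaks were measured in 4 tumors. Reads had been aligned by the authors to mm10 using BWA, and MACS2 was run on every tumor against its own input. The 4 input samples themselves are not analysed here. The deposited intervals, in base pairs, had been cleaned and merged in a way not given in the sources used here, and hold no score or depth, so no counting interval can be given. A more deeply sequenced tumor can have more and wider peaks. Groups follow the genotype in the labels, and tumor numbers are names.

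Gene starts came from GENCODE M21 (GRCm38, the same assembly as mm10) and promoter sequences from RefSeq. Intervals were read with Python 3.11.15 and numpy 2.4.6, and the script was tested on simulated data. Joined regions counted as present with an overlap of at least 1 bp. Groups were called apart when both tumors of a group exceeded both of the other. Alternatives were windows of 2.5 and 25 kb, a promoter of 2.5 kb, any annotated start, peaks of at least 1 kb, equal peak numbers (the 59762 widest), peaks within 1 kb joined, and leaving out each tumor.

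The members and lists were chosen with earlier results of these data known. Named with values were the luminal and basal keratins, genes with a promoter peak, genes whose groups did not overlap and up to 10 covered hair and inner root sheath keratins. Examples named from the other lists were chosen after their values were seen. Krt85 was not analysed here. The position and bases of the test-only region are not reported here.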

Additional observations from a re-analysis of the deposited data

How the results depend on the processing

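Coverage differences of the luminal, basal and hair keratins and of both clusters, and the difference in promoter counts, moved by less than the spread between tumors in every alternative run, and the sign turned in 15 of these 51 values. Counts of genes and regions moved more. Genes higher in both control tumors numbered 4, and 0 with the 2.5 kb window. With peaks of at least 1 kb they numbered 3 (Krt4, Krt23 and Krt39), and 0 of these were among the 4, whose groups then overlapped (Krt80, Krt42 and Krt79) or held no peak (Krt31). With the 25 kb window they numbered 3, of which 2 were among the 4 (Krt80 and Krt31). Genes higher in both test tumors numbered 0, and were 1 with the 2.5 kb window, 2 with the 25 kb window and 1 with peaks of at least 1 kb. The median difference of -0.900 was -3.12 with peaks of at least 1 kb. Control-only regions numbered 4, and were 0 with peaks of at least 1 kb, 0 with equal peak numbers and 2 with peaks within 1 kb joined. Test-only regions numbered 1, and were 0 in each of these 3 alternatives. With each tumor left out in turn, genes higher in control tumors ranged from 4 to 17, genes higher in test from 0 to 7, the median difference from -2.61 to 0.262, control-only regions from 5 to 10 and test-only regions from 2 to 16. The 16 test-only regions and the 7 genes higher in test came without test 2, and the 17 genes higher in control without test 1. A group of 1 tumor meets these rules more easily, by construction, and no share over all genes or regions is given for these counts. Of 126 alternative values of single genes 109 stayed within the spread between pairs of tumors and 17 moved further. The sign turned in 21 of those at genes whose groups overlapped, such as Krt4 (-1.55, and 5.12 with the 2.5 kb window) and, without control 1, Krt15 (-3.91 to 4.51) and Krt19 (-8.39 to 4.15). At Krt80 the difference was -16.0 (SD 16.2) with the 2.5 kb window, -12.6 (SD 12.8) with peaks of at least 1 kb and -5.03 (SD 1.15) with the 25 kb window, and at Krt42 it was 0 with the 2.5 kb window and -3.60 (SD 4.16) with peaks of at least 1 kb, at Krt79 -0.410 (SD 9.44) and -1.24 (SD 2.8), and at Krt31 0 in both. The cause was not tested. No paired analysis was possible because the labels tie no control tumor to a test tumor.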
